A study of Mus musculus with 8 samples.

Results

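The 10 genes described here encode the sensors of the unfolded protein response (UPR) and the enzymes and transcription factors directly downstream of them: Ern1, Ern2, Xbp1, Rtcb, Atf6, Atf6b, Eif2ak3, Atf4, Ddit3 and Ppp1r15a. They were chosen by name, from their known roles, out of the 55414 genes of the count table, and all 10 passed the filter on low counts. RNA was measured in Paneth cells, secretory cells of the small intestine that sit at the bottom of the crypts and release antimicrobial peptides. Mice were wild type and, as named in the methods, of the C57BL/6J strain. They received an injection of phosphate-buffered saline (PBS, 4 libraries) or of tumor necrosis factor (TNF, an inflammatory cytokine, 4 libraries), and the cells were sorted from the small intestine 3 hours later. The libraries of both groups therefore share genotype, tissue, time and sorting and differ by the injected agent. The sources used here do not give age, dose or the sex of each animal, and the datasets of the study hold animals of both sexes. Sorted samples are described as coming from individual mice, and each library was taken as 1 replicate.

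The UPR is the response of a cell to an excess of unfolded protein in the endoplasmic reticulum (ER), and it matters most in cells that secrete large amounts of protein, such as Paneth and goblet cells. It has 3 arms, each named after a sensor in the ER membrane. IRE1 is a kinase and endoribonuclease that cuts a short intron out of the Xbp1 messenger RNA in the cytoplasm, after which the tRNA ligase RTCB joins the exons and the spliced message encodes the active transcription factor. ATF6 is itself a transcription factor, released from the membrane by proteolysis in the Golgi. PERK phosphorylates the translation initiation factor eIF2, which lowers general translation but favours translation of ATF4, and ATF4 in turn activates Ddit3 and Ppp1r15a. The splicing, cleavage, phosphorylation and translation steps are not seen in a count of reads per gene.

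The libraries held between 23824717 and 32576077 counts. TNF replicate 4 stood apart from the others: its TMM scaling factor (the trimmed mean of M-values, which corrects library sizes for differences in composition) was 0.448, against 0.995 to 1.36 in the other 7 libraries, and it lay at 63.9 on the second principal component, where the others lay between -29.1 and 4.22. Of 13368 genes tested, 5747 (43%) passed an adjusted p under 0.05, 3122 (23.4%) as higher and 2625 (19.6%) as lower after TNF, and the median log2 fold change was 0.03. In 5634 genes (42.1%) the values of the 2 groups did not overlap. With library size alone in place of TMM factors the median moved to -0.38 and the share of higher genes among those called from 54.3% to 23.8%, so the fold changes below are given relative to the bulk of the genes. Levels are given as normalized CPM, which divide each count by the library's size after TMM adjustment.

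The labelled cell type was checked against markers. Markers of Paneth cells (8 genes) took between 378000 and 476000 plain CPM (divided by the unadjusted library size) in each library, with the highest sum in TNF replicate 4 and between 378000 and 426000 in the others. Markers of goblet cells (7 genes) summed to 9710 to 14000 in PBS and 11400 to 13300 in TNF. Those of stem cells (5 genes) summed to 1970 to 2500 in PBS and 783 to 2050 in TNF, and those of enterocytes (6 genes) to 35.1 to 45.6 and 16.2 to 26.8. The 5 enteroendocrine markers summed to 10.8 to 16.6 in PBS and 27.3 to 39.7 in TNF, and the 3 tuft cell markers summed to 12.5 to 29 and 7.54 to 23.7. The 6 immune markers summed to at most 0.921, with Cd3e and S100a8 at 0 in every library. By gene, 1 Paneth marker was called higher and none lower, 1 goblet marker was called higher and 2 lower, 1 enterocyte and 4 stem cell markers were called lower, 3 enteroendocrine markers were called higher, and no tuft marker was called. The part that these shifts play in the results below was not tested. In RNA from sorted cells, a change in the number of cells of a type and a change in RNA per cell cannot be told apart.

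After TNF, 6 of the 10 genes changed: Xbp1, Rtcb, Eif2ak3 and Ppp1r15a rose and Atf6b and Ddit3 fell. Ern1, Ern2, Atf6 and Atf4 did not pass the test. The 6 of 10 stand beside 43% of all genes tested, the 4 higher beside 23.4% and the 2 lower beside 19.6%, and the median log2 fold change of the 10 was 0.24. Each arm held both genes that moved and genes that did not: in the IRE1 arm the factor and the ligase rose while neither sensor was called, in the ATF6 arm the paralog fell while Atf6 was not called, and in the PERK arm the kinase and the phosphatase subunit rose and Ddit3 fell around an Atf4 level that was not called.

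**Figure D1:**
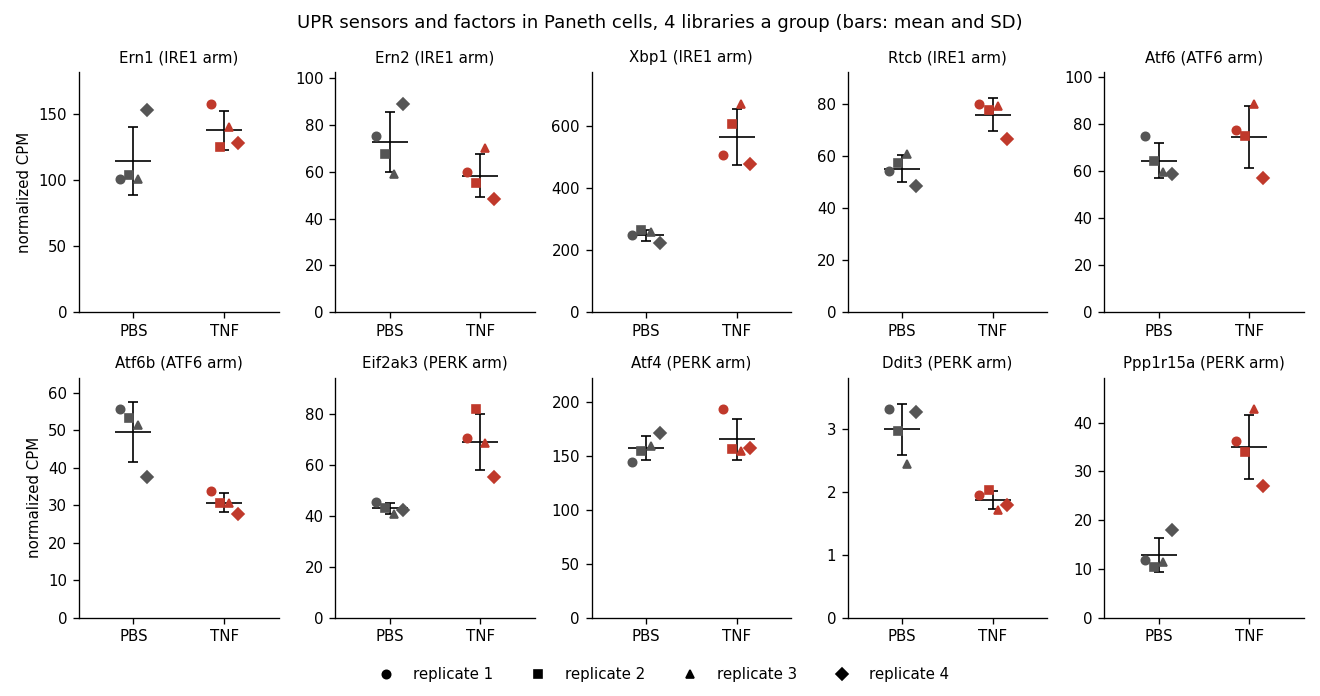
Normalized CPM of each gene (vertical axis, from 0) in the 4 PBS libraries (grey) and the 4 TNF libraries (red), with marker shape giving the replicate number and bars the mean and SD. Xbp1, Rtcb, Eif2ak3 and Ppp1r15a lie higher in every TNF library than in any PBS library, Atf6b and Ddit3 lower, and the groups overlap in Ern1, Ern2, Atf6 and Atf4.

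Because the genes differ in length, their levels can be ordered only per kilobase. On normalized CPM per kilobase of merged exons, the order in PBS was Atf4 (66.2 ± 4.63, SD, n = 4), Xbp1 (35.9 ± 2.61), Ern2 (24.2 ± 4.25), Atf6b (14.8 ± 2.42), Rtcb (14.5 ± 1.36), Ern1 (11.3 ± 2.53), Eif2ak3 (6.77 ± 0.315), Atf6 (6.58 ± 0.755), Ppp1r15a (4.39 ± 1.16) and Ddit3 (0.539 ± 0.0727). The ranges of neighbours overlapped for Atf6b and Rtcb, Rtcb and Ern1, Eif2ak3 and Atf6, and Atf6 and Ppp1r15a, so those places in the order are not separated by the spread. After TNF, Xbp1 stood first at 81.8 ± 13.0 per kilobase, with a range that overlapped that of Atf4 (69.6 ± 7.90). Ppp1r15a moved to 11.9 ± 2.23 per kilobase, where its range overlapped those of Ern1 and Eif2ak3. Ern2 is a sensor found mainly in mucus-secreting epithelium, and on this scale its level in PBS lay above that of Ern1, present in most cells, with no overlap between 19.7 to 29.6 for Ern2 and 10 to 15.2 for Ern1. On the length of the canonical transcript these ranges overlapped, 20.2 to 30.5 for Ern2 and 14.4 to 21.9 for Ern1. On that length Xbp1 stood above Atf4 already in PBS (126 and 90.2 per kilobase), since the merged exons of Xbp1 (6931 bases) are longer than its canonical transcript (1969 bases).

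The IRE1 arm turns on 1 short sequence. The 26-base intron that IRE1 removes lies in exon 4 of 5 of the Xbp1 transcript ENSMUST00000063084.17 (chromosome 11, plus strand), and is annotated as a gap in 1 of the 24 Xbp1 transcripts, ENSMUST00000239150.3. It is shown here because the gene counts do not resolve it. Removing it shifts the reading frame, and the coding sequence goes from 267 to 371 codons. The run below covers chr11:5474248-5474333 of GRCm39 with the intron (chr11:5474278-5474303) in capitals and 30 bases on each side.

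Xbp1 intron: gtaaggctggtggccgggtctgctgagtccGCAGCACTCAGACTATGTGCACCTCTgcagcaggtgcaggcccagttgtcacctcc

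The letters CCGCAG span its start and CTGCAG its end, both of the form CNGCAG that IRE1 recognises in a pair of hairpin loops. Because a G stands both at the start of the capitals and directly after them, a boundary shifted by 1 base gives the same spliced product. The capitals follow the annotated gap and do not fix the base at which IRE1 cuts. Reads from the spliced and the unspliced form count for the same gene, so the values of Xbp1 below are totals of both and hold no measure of splicing.

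Ern1 (IRE1 alpha, chr11:106283818-106378686, minus strand, ENSMUSG00000020715) stood at 101, 104, 101 and 153 normalized CPM in PBS replicates 1 to 4 and at 158, 125, 140 and 128 in TNF. The groups overlapped only through PBS replicate 4, which lay above 3 of the 4 TNF libraries. Its log2 fold change was 0.27 (SE 0.16, 95% interval -0.09 to 0.62, edgeR adjusted p 0.213). Without PBS replicate 4 it was 0.40 and passed the test (edgeR adjusted p 0.042).

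Ern2 (IRE1 beta, chr7:121769116-121785468, minus strand, ENSMUSG00000030866) stood at 75.4, 67.5, 59.0 and 89.0 normalized CPM in PBS and at 60.0, 55.1, 70 and 48.3 in TNF. TNF replicate 3 lay above 2 of the PBS libraries, and TNF replicate 1 lay just above PBS replicate 3, while TNF replicates 2 and 4 lay below every PBS library. This gave a log2 fold change of -0.32 (SE 0.16, 95% interval -0.66 to 0.03, edgeR adjusted p 0.125).

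Both sensor paralogs were also compared within each library, where the ratio of counts does not depend on how libraries are scaled. The ratio of Ern2 to Ern1 counts was 0.749, 0.650, 0.586 and 0.583 in PBS and 0.380, 0.441, 0.499 and 0.378 in TNF. All 4 TNF libraries lay below all 4 PBS libraries, although neither gene alone passed the test. The geometric mean fell from 0.639 to 0.422, a difference of -0.60 on the log2 scale (exact permutation test, two-sided p 0.0286, the smallest that 4 against 4 allows, adjusted p 0.0357 over 5 ratios). Without PBS replicate 1 the difference was -0.52 with an adjusted p of 0.0571 (exact permutation test). Ern2 is also known from goblet cells. Of the 7 goblet markers, Muc2 rose by 1.27 (edgeR adjusted p 0.00438) and Fcgbp fell by 1.53 (edgeR adjusted p 0.00142). Clca1 fell by 2.55 (edgeR adjusted p 0.0295), but its range of 41.1 to 554 normalized CPM in PBS overlapped 24 to 42.2 in TNF. Its PBS mean of 170 had an SD of 255, and DESeq2 gave no p for it. The other 4 were not called, with Spink4 at 0.70, Tff3 at 0.535, Agr2 at 0.17 and Zg16 at 0.07. The part of these markers in the ratio of Ern2 to Ern1 was not tested.

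Xbp1 (chr11:5470606-5483027, plus strand, ENSMUSG00000020484), the factor that drives genes of ER expansion, protein folding and secretion, stood at 248, 265, 258 and 224 normalized CPM in PBS and at 508, 608, 673 and 478 in TNF. The lowest TNF library lay well above the highest PBS library. Xbp1 thus rose 2.28-fold, or by 1.19 on the log2 scale (SE 0.15, edgeR adjusted p 0.000135). The call did not hold with library size alone (0.84, edgeR adjusted p 0.0672). In plain CPM, TNF replicate 4 was at 214, below the PBS range of 274 to 312, while the other TNF libraries were at 562 to 715. With library size alone and TNF replicate 4 left out, an alternative added after seeing the data, Xbp1 was at 1.10 (edgeR adjusted p 3.02e-05). The merged exons of Xbp1 share 1526 bases with those of Ccdc117 on the other strand, which was not called (0.38, edgeR adjusted p 0.0861), and none of these bases is in the canonical Xbp1 transcript.

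The ratio of Xbp1 to Atf4 counts, which sets the factor of the IRE1 arm against that of the PERK arm, was 1.72, 1.72, 1.62 and 1.31 in PBS and 2.63, 3.89, 4.36 and 3.05 in TNF. No TNF library reached down to the PBS range, and TNF replicate 4 lay among the other TNF libraries on this measure. The difference was 1.11 on the log2 scale (exact permutation test, two-sided p 0.0286 and adjusted p 0.0357).

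Rtcb (chr10:85774488-85793700, minus strand, ENSMUSG00000001783), the ligase that joins the Xbp1 exons, stood at 54.2, 57.2, 60.8 and 48.6 normalized CPM in PBS and at 80.1, 77.7, 79.2 and 66.7 in TNF. The groups did not overlap. Rtcb rose by 0.46 on the log2 scale (SE 0.11, edgeR adjusted p 0.00782). The call was lost without PBS replicate 1 (0.42, edgeR adjusted p 0.0627), without TNF replicate 1 (0.41, 0.0579), without TNF replicate 2 (0.42, 0.0571) and with no filter on low counts (0.42, 0.0577), and Rtcb was at 0.11 with library size alone. Rtcb shares 28 exon bases with Ascl4 on the other strand, which rose by 0.62 (edgeR adjusted p 0.00441), and the contribution of shared reads was not tested.

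Of the 4 partners of RTCB in its ligase complex, none was called, beside 43% of all genes tested, and their median log2 fold change was -0.01, beside 0.03 for all genes tested. Ddx1, an RNA helicase of the complex, was at 0.21 (edgeR adjusted p 0.117), Fam98b at -0.30 (0.171) and Zbtb8os, which encodes the archease that activates the ligase, at -0.17 (0.26). Without TNF replicate 4, where 50.4% of all genes were called, 2 of the 4 were called, Ddx1 as higher (0.27, edgeR adjusted p 0.0245) and Rtraf as lower (-0.38, edgeR adjusted p 0.0218).

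Among 12 genes known as XBP1 targets, 1 was called higher and 2 lower, beside 23.4% and 19.6% of all genes tested, with a median log2 fold change of 0.17. Pdia6, a protein disulfide isomerase, fell by 0.54 on the log2 scale (SE 0.17, edgeR adjusted p 0.0243) and Dnajc3, a co-chaperone that also inhibits eIF2 kinases, by 0.49 (SE 0.12, edgeR adjusted p 0.00642). Srpra, a subunit of the receptor that docks ribosomes at the ER, rose by 0.36 (SE 0.12, edgeR adjusted p 0.0394). The other 9 were not called, among them Dnajb9, an ER co-chaperone, at 0.61 (SE 0.30, edgeR adjusted p 0.131), which was called without TNF replicate 3 (0.82, edgeR adjusted p 0.0269). The count of 3 went to 1 without PBS replicate 2 or PBS replicate 3, with 36.9% of all genes called in each. Pdia6 lost its call without PBS replicate 2 (-0.53, edgeR adjusted p 0.0607), PBS replicate 3 (-0.51, 0.0659) or TNF replicate 3 (-0.46, 0.0718). Srpra lost its call under each of the 7 libraries left out in turn other than TNF replicate 4, with edgeR adjusted p between 0.0711 and 0.193, and was at -0.002 (edgeR adjusted p 0.997) with library size alone.

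IRE1 can also degrade other messages at the ER, a process called RIDD. Of 6 transcripts known for it, 3 passed the filter on low counts, and 2 of these fell, beside 19.6% of all genes tested. Sparc fell by 2.09 (SE 0.47, edgeR adjusted p 0.00437) from 1.02 ± 0.471 to 0.244 ± 0.101 normalized CPM (SD, n = 4), a low level. Hgsnat, a lysosomal enzyme, fell by 0.45 (SE 0.11, edgeR adjusted p 0.00874) from 15 ± 1.5 to 11 ± 0.255 normalized CPM, a call lost with library size alone (-0.83, edgeR adjusted p 0.0577). Bloc1s1, the transcript most often used as a sign of RIDD, was at 0.639 ± 0.149 and 0.564 ± 0.321 normalized CPM, with -0.32 on the log2 scale (SE 0.38, edgeR adjusted p 0.527). Scara3, Pmp22 and Col6a1 did not pass the filter. Pmp22, a myelin and junction protein, went the other way at a very low level, from 0 to 0.0804 normalized CPM in PBS and from 0.175 to 1.89 in TNF, with no overlap. With no filter on low counts Pmp22 was called higher (3.97 on the log2 scale, edgeR adjusted p 0.00024), and DESeq2 called it too (4.24, adjusted p 8.52e-05).

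In the ATF6 arm the paralogs differed. Atf6 (chr1:170532026-170696208, minus strand, ENSMUSG00000026663), the sensor that activates ER chaperone genes after cleavage, stood at 75.0, 64.2, 59.8 and 58.9 normalized CPM in PBS and at 77.5, 75.1, 88.8 and 57.0 in TNF. TNF replicate 4 was the lowest of all 8 libraries, and the other 3 TNF libraries lay above every PBS library. For TNF replicate 2 the margin was narrow (75.1 against 75.0 in PBS replicate 1). Its fold change was 0.21 on the log2 scale (SE 0.15, 95% interval -0.11 to 0.54, edgeR adjusted p 0.274). Leaving out TNF replicate 4 gave 0.33, which passed the test (edgeR adjusted p 0.0263).

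Atf6b (chr17:34866091-34874056, plus strand, ENSMUSG00000015461), a relative of ATF6 with weaker transcriptional activity, stood at 55.7, 53.2, 51.5 and 37.7 normalized CPM in PBS and at 33.9, 30.5, 30.5 and 27.7 in TNF. Even the lowest PBS library, replicate 4, lay above the highest TNF library. Atf6b fell to 0.62 of its PBS level, by 0.69 on the log2 scale (SE 0.14, edgeR adjusted p 0.0022). Atf6b was called lower under every alternative run, library size alone included (-1.04). Of its canonical transcript, 9.3% of bases lie opposite exons of Gm64738, a gene with no count in the table.

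The ratio of Atf6b to Atf6 counts was 0.743, 0.83, 0.860 and 0.640 in PBS and 0.438, 0.407, 0.344 and 0.485 in TNF. The groups did not overlap, and TNF replicate 4 was the TNF library nearest to PBS. The geometric mean fell from 0.763 to 0.415, a log2 difference of -0.88 (exact permutation test, two-sided p 0.0286 and adjusted p 0.0357).

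**Figure D2:**
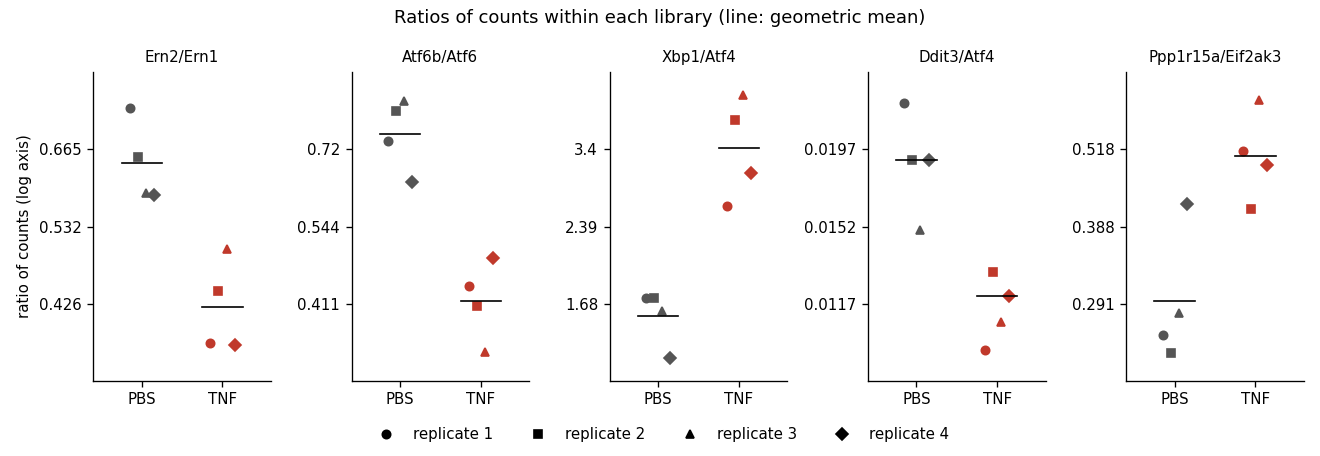
Ratio of the counts of 2 genes within each library (vertical axis, log scale with its own range in each panel) for 5 pairs, in PBS (grey) and TNF (red), with marker shape giving the replicate number and the line the geometric mean. The groups do not overlap for Ern2/Ern1, Atf6b/Atf6, Xbp1/Atf4 and Ddit3/Atf4, and they overlap for Ppp1r15a/Eif2ak3 through PBS replicate 4.

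Of the 5 genes for ATF6 processing and for NF-Y, the trimeric factor that binds CCAAT boxes together with ATF6, 1 was called, beside 43% of all genes tested. Mbtps1, the site-1 protease that makes the first cut in ATF6, fell by 0.50 (SE 0.09, edgeR adjusted p 0.0016) from 55.4 ± 0.912 to 39.1 ± 2.18 normalized CPM. It was not called with library size alone (-0.88, edgeR adjusted p 0.0635). The NF-Y subunits Nfya at 0.20 (edgeR adjusted p 0.251) and Nfyc at 0.15 (0.407) were not called. The median of the 5 was 0.04.

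Among 12 genes known as ATF6 targets, which hold the main chaperones of the ER, 1 was called higher and 5 lower, beside 23.4% and 19.6% of all genes tested, and the median log2 fold change was -0.39 beside 0.03 for all of them. Sel1l, the adaptor of the ER-associated degradation complex, fell by 0.96 (SE 0.17, edgeR adjusted p 0.00128) from 230 ± 21.1 to 119 ± 26.5 normalized CPM. Hsp90b1, the ER form of HSP90, fell by 0.67 (SE 0.14, edgeR adjusted p 0.00285) and Pdia4, a disulfide isomerase, by 0.77 (SE 0.21, edgeR adjusted p 0.0117). Hspa5, which encodes BiP, the chaperone that holds the sensors inactive, went the other way and rose by 0.61 (SE 0.21, edgeR adjusted p 0.0357), from 517 ± 128 to 787 ± 93.2 normalized CPM. The Hspa5 call was lost in several alternatives, among them each of PBS replicates 2, 3 and 4 and TNF replicates 1 and 2 left out in turn (log2 fold changes of 0.40 to 0.65, edgeR adjusted p 0.0637 to 0.104) and library size alone (0.21, edgeR adjusted p 0.616). Without PBS replicate 2 the count of called ATF6 targets was 3, with 36.9% of all genes called. Without TNF replicate 4 it was 8, with 50.4% of all genes called.

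The 3 genes of the PERK arm beside Atf4 each changed. Eif2ak3 (PERK, chr6:70821461-70882235, plus strand, ENSMUSG00000031668) stood at 45.6, 43.1, 40.7 and 42.4 normalized CPM in PBS and at 70.6, 81.9, 68.7 and 55.2 in TNF. The PBS libraries lay close together (coefficient of variation 4.65%) and all TNF libraries were above them, with TNF replicate 4 the nearest. Eif2ak3 rose by 0.69 on the log2 scale (SE 0.13, edgeR adjusted p 0.0015), and was at 0.34 with library size alone (edgeR adjusted p 0.502). Of its canonical transcript 10.6% of bases lie opposite exons of Gm43292, an unclassified transcript that rose by 0.70 (edgeR adjusted p 0.00402), and the contribution of shared reads was not tested.

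Atf4 (chr15:80139372-80141745, plus strand, ENSMUSG00000042406) stood at 144, 154, 159 and 171 normalized CPM in PBS and at 193, 156, 154 and 157 in TNF. The TNF libraries other than replicate 1 lay within the PBS range. On the log2 scale the fold change was 0.07 (SE 0.12, 95% interval -0.20 to 0.35, edgeR adjusted p 0.665), and -0.04 without TNF replicate 1. The output of this arm is set mainly by translation of Atf4, which these data do not measure.

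Ppp1r15a (GADD34, chr7:45172340-45175692, minus strand, ENSMUSG00000040435), the stress-induced subunit that directs a phosphatase to eIF2 and so reverses the work of PERK, stood at 11.8, 10.4, 11.4 and 17.9 normalized CPM in PBS and at 36.3, 33.9, 42.8 and 27.0 in TNF. PBS replicate 4 was the highest of its group and TNF replicate 4 the lowest, and the groups stayed apart. At 1.44 (SE 0.19, edgeR adjusted p 0.000181), or 2.71-fold, this was the largest log2 fold change among the 10 genes. With library size alone it was 1.08 (edgeR adjusted p 0.0595).

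Ddit3 (CHOP, chr10:127124268-127132163, plus strand, ENSMUSG00000025408), a factor tied to cell death under lasting ER stress, stood at 3.32, 2.97, 2.44 and 3.28 normalized CPM in PBS and at 1.95, 2.04, 1.72 and 1.8 in TNF. It was the lowest of the 10 genes, with raw counts of 62 to 145 in PBS and 21 to 59 in TNF, and the groups did not overlap. Ddit3 fell by 0.68 on the log2 scale (SE 0.18, edgeR adjusted p 0.0115). Every base of its canonical transcript is shared with exons of other genes, among them Mars1 on the other strand, with 1378 to 2775 counts in every library but TNF replicate 4 (672), and a second, short Ddit3 entry with 0 counts throughout. Mars1 itself was not called (-0.22, edgeR adjusted p 0.133). No source used here says whether the counting used strand, so both the level of Ddit3 and its fall are uncertain.

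The counts of Ddit3 and Ppp1r15a, both classical targets of ATF4, changed in opposite directions. The limit on Ddit3 from shared exons holds for this and for the ratio below. The ratio of Ddit3 to Atf4 counts was 0.023, 0.019, 0.015 and 0.019 in PBS and 0.010, 0.013, 0.011 and 0.012 in TNF, with no overlap and a log2 difference of -0.73 (exact permutation test, two-sided p 0.0286 and adjusted p 0.0357). Leaving out TNF replicate 1 gave -0.67 with an adjusted p of 0.0714 (exact permutation test). The ratio of Ppp1r15a to Eif2ak3 counts, the phosphatase subunit against the kinase, was 0.259, 0.242, 0.281 and 0.423 in PBS and 0.515, 0.415, 0.623 and 0.489 in TNF. PBS replicate 4 lay above TNF replicate 2, and the log2 difference of 0.78 had a two-sided exact permutation p of 0.0571 (adjusted p 0.0571). Without PBS replicate 4 it was 0.96 and passed the test (exact permutation test, adjusted p 0.0286).

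**Figure D3:**
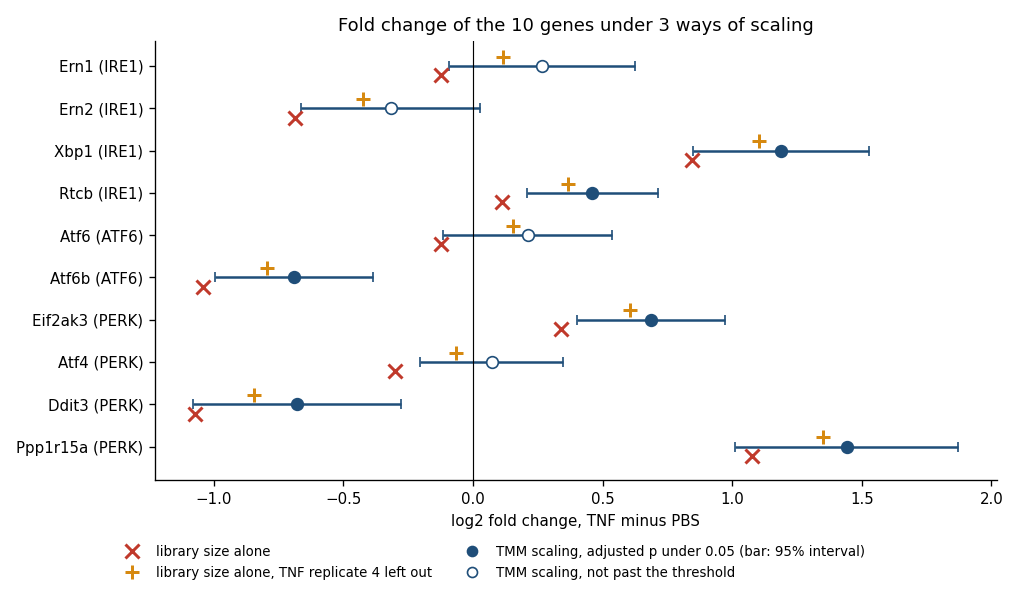
Log2 fold change of TNF against PBS (horizontal axis) for the 10 genes with TMM scaling (circles, filled where the edgeR adjusted p is under 0.05, bars the 95% interval), with library size alone (red crosses) and with library size alone and TNF replicate 4 left out (orange plus signs). Library size alone moves every gene to the left, and Ern1, Atf6 and Atf4 then lie below 0. Without TNF replicate 4 the points lie nearer to the circles but still to their left, and Atf4 still lies below 0.

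The scaling moved all 10 genes together. With library size alone, 2 of the 10 were called, Atf6b (-1.04) and Ddit3 (-1.07), beside 23.8% of all genes. With library size alone and TNF replicate 4 left out, 6 were called, Xbp1, Rtcb, Eif2ak3 and Ppp1r15a as higher and Atf6b and Ddit3 as lower, which are the 6 called with TMM factors. Of all genes 44.6% were called in that fit, 16.4% as higher and 28.2% as lower. The median log2 fold change of all genes was -0.20 there, against 0.03 with TMM factors and -0.38 with library size alone on all libraries. TNF replicate 4 was the lowest of the 8 libraries in plain CPM for 9 of the 10 genes, and for Ppp1r15a it was at 12.1, within the PBS range of 10.9 to 24.3.

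The promoters of Ddit3 and Ppp1r15a are shown because ATF4 is known to act on both and their counts moved in opposite directions, with the limit on Ddit3 given above. The runs give the 250 bases before the annotated start in GRCm39, read along the gene. For Ppp1r15a (chr7:45175693-45175942, minus strand) the capitals mark a cyclic AMP response element, TGACGTCA. For Ddit3 (chr10:127126310-127126559, plus strand) they mark TTGCATCA, the reverse strand of the C/EBP-ATF response element TGATGNAA.

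Ppp1r15a promoter: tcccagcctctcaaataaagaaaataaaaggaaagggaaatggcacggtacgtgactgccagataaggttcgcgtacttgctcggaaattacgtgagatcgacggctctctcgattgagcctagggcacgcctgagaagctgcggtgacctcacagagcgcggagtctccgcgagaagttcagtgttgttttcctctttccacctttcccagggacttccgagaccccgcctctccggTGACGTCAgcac

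Ddit3 promoter: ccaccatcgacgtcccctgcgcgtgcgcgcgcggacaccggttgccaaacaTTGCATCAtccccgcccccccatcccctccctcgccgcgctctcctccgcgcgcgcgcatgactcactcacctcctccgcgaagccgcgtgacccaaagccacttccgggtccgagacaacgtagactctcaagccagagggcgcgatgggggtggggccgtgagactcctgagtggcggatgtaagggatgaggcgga

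Windows of 300 bases, 250 before and 50 after the annotated start, were searched on both strands, each motif on its own and with any overlap allowed. TGACGTCA was found in 2.44% of 21770 protein-coding genes' windows and, among the 10 genes, only in that of Ppp1r15a, 12 bases before its start. TGATGNAA was found in 3.84% of windows and, among the 10, only in that of Ddit3, 199 bases before its start. The ER stress element bound by ATF6 with NF-Y, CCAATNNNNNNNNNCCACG, was found in 0.124% of windows, and the XBP1 element TGACGTGG, which shares TGACGT with the cyclic AMP response element, in 0.721%; neither is in the window of any of the 10. A NF-kB motif was found in 4.87% of windows and, among the 10, in that of Ern2, 27 bases before its start. The CCAAT box, found in 39.9% of windows, occurred 7 times in the window of Eif2ak3, 2 times in that of Atf4 and 1 time each in those of Atf6b and Ddit3. These matches describe letters and were not tied to binding.

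**Figure D4:**
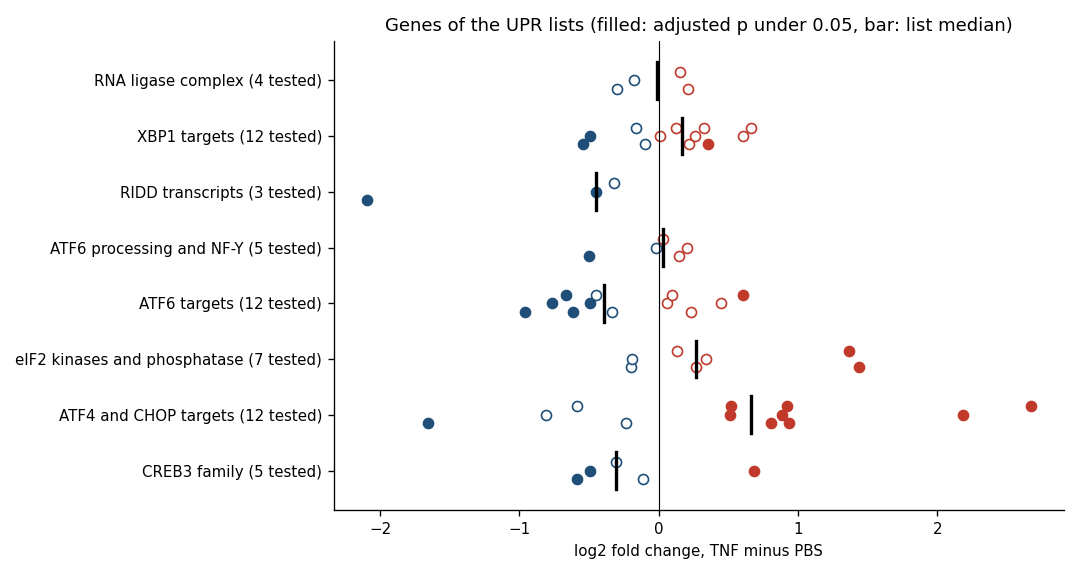
Log2 fold change of TNF against PBS (horizontal axis) for each tested gene of 8 lists of partners and targets of the UPR (rows), in red above 0 and in blue below, filled where the edgeR adjusted p is under 0.05, with a black bar at the list's median. The median is -0.39 for ATF6 targets, 0.17 for XBP1 targets and 0.66 for ATF4 and CHOP targets.

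Around the PERK arm, 7 genes of the other eIF2 kinases, of eIF2 alpha and of its phosphatase were tested, of which 2 were called, both higher, beside 23.4% of all genes tested called higher. Their median was 0.27. Eif2ak2 (PKR, the kinase that answers to double-stranded RNA and is induced by interferon) rose by 1.44 (SE 0.21, edgeR adjusted p 0.000267), from 8.67 ± 2.68 to 23.6 ± 2.43 normalized CPM, a call lost with library size alone (1.05, edgeR adjusted p 0.0629). Eif2s1, which encodes eIF2 alpha, the substrate of PERK, rose by 1.36 (SE 0.23, edgeR adjusted p 0.000833), with 55.4 to 119 normalized CPM in TNF against 24.7 to 31.9 in PBS, and was at 0.84 (edgeR adjusted p 0.0248) with library size alone. Eif2ak1, the heme-regulated kinase, was at -0.19 (edgeR adjusted p 0.142).

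Among 12 genes known as targets of ATF4 and CHOP, 8 were called higher and 1 lower, beside 23.4% and 19.6% of all genes tested, with a median log2 fold change of 0.66. Atf3, an early stress factor, rose by 2.67 (SE 0.24, edgeR adjusted p 1.03e-05) from 1.47 ± 0.466 to 9.34 ± 1.86 normalized CPM. Cebpb, a factor of inflammatory gene expression, rose by 2.18 (SE 0.22, edgeR adjusted p 2.01e-05). Sesn2, a stress sensor that restrains mTORC1, went the other way, falling by 1.66 (SE 0.23, edgeR adjusted p 0.000195) from 10.6 ± 1.17 to 3.28 ± 1.24 normalized CPM. With library size alone, 3 of the 12 were called, Atf3 (2.30) and Cebpb (1.86) as higher and Sesn2 (-1.98) as lower. Over all genes 23.8% were called in that fit, 5.66% as higher and 18.1% as lower.

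Of the 5 genes of the CREB3 family, ER-membrane factors cut in the same way as ATF6, 1 rose and 2 fell, beside 23.4% and 19.6% of all genes tested, with a median of -0.31 against 0.03. Under library size alone 1 of the 5 was called, Creb3l4, beside 23.8% of all genes, and Creb3 was at 0.25 (edgeR adjusted p 0.527). Creb3 rose by 0.68 (SE 0.15, edgeR adjusted p 0.00323). Creb3l4 fell by 0.49 (SE 0.11, edgeR adjusted p 0.00408) and Creb3l1 by 0.59 (SE 0.20, edgeR adjusted p 0.0348). The Creb3l1 call was lost when any of PBS replicates 1 to 3 or either of TNF replicates 1 and 2 was left out (edgeR adjusted p 0.0534 to 0.113).

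For 4 of the 10 genes, the protein-coding genes with the most similar levels over the 8 libraries were found by Pearson's r of log2 normalized CPM, among 8205 genes. The 8 points share their libraries, their scaling and the split into groups, so r describes likeness only. Xbp1 was closest to Pard6b (r = 0.998), a polarity protein, Wsb2 (0.997), a ubiquitin ligase adaptor, and Rab7 (0.996), a late endosome GTPase. Ern2 was closest to Btbd7 (0.982), Sec63 (0.978), which works with the ER protein channel, and Hmgn5 (0.973). Atf6 was closest to Zdhhc3 (0.96), Syvn1 (0.955), the ubiquitin ligase of ER-associated degradation, and Bpnt2 (0.948). Atf4 had lower values, with Sanbr at 0.904, Wdr82 at 0.855 and Msto1 at 0.84.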

How the data were processed

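The authors deposited raw counts per Ensembl gene, 1 column per library, not normalized. Per the labels, the library kit was TruSeq Stranded mRNA, and the submitters' processing notes name FastQC 0.12, STAR 2.7.10a, DESeq2 and the mm39 build. Which counter was used, and how it treated strand and shared reads, is not stated in any source used here.

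TNF was compared with PBS in R 4.3.3 by edgeR 4.0.16 (glmQLFit and glmQLFTest), using TMM factors and the filterByExpr filter, with group as the only term. Benjamini-Hochberg adjustment covered all 13368 genes tested, and called means an adjusted p under 0.05. Standard errors were derived from the F statistic. Intervals are at 95%. Ratios used counts plus 0.5, and their two-sided exact permutation test enumerated all 70 ways to assign the libraries. Alternatives were other scalings and filters, DESeq2 1.42.0, limma-voom (limma 3.58.1), a replicate block and each library left out. The main script was checked on simulated counts, with fewer changed genes than were called here and no library of differing composition. That check therefore does not bear on the choice of scaling.

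Symbols, coordinates, exon lengths and starts came from a GENCODE annotation of GRCm39, which matched 54749 of 55414 gene IDs (665 not), and sequences from the GRCm39 genome. Merged exons are the union of all exons of a gene. The genes described, the lists of partners, targets and markers, and the tests were chosen with earlier results of these data known, and no list was tested as a set. The genes named are the 10, in each list the 3 with the smallest p and any called against the majority, the 3 closest in level to each of 4 genes, and genes that overlap the 10. Dnajb9, Rtraf, the goblet markers and the genes not tested or at 0 were named after their values were seen. No pair of libraries within a group agreed within sampling noise.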

Additional observations from a re-analysis of the deposited data

Results flagged for a closer look

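In 30 groups of 4 values (10 genes and 5 ratios in each of PBS and TNF), the gap of the highest or lowest library to its nearest neighbour was compared with Dixon's 95% limit for 4 values. Chance alone flags about 1 in 20 groups, and 2 stood out here. PBS replicate 4 was at 153 normalized CPM of Ern1, with a gap of 0.942 of the range above the other PBS libraries. TNF replicate 1 was at 193 normalized CPM of Atf4, with a gap of 0.923 of the range. Both are genes that did not pass the test, and their values without these libraries are given with each gene.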

How the results depend on the processing

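Leaving out 1 library at a time, between 5 and 7 of the 10 genes were called, with 35.1% to 50.4% of all genes called. Library size alone called 2, and 15 of the 60 list genes tested against 26 with TMM factors, while the share of all genes called went from 43% to 23.8%. It reversed Ern1 (-0.12), Atf6 (-0.12) and Atf4 (-0.30), and Atf4 was also reversed without TNF replicate 1 (-0.04, in a range of -0.04 to 0.11 with 1 library left out) and with library size alone and TNF replicate 4 left out (-0.07). The cause was not tested. Apart from library size alone, 86 of 90 fold changes of the 6 called genes under other settings kept their call and direction, and the 4 that did not were those of Rtcb. At an adjusted p under 0.01, 5 of the 10 were called, beside 29.2% of all genes. On the length of the canonical transcript the levels in PBS were 126 for Xbp1, 90.2 for Atf4, 27.3 for Rtcb, 25 for Ern2, 19.0 for Atf6b, 16.4 for Ern1, 9.43 for Eif2ak3, 8.55 for Atf6, 5.53 for Ppp1r15a and 3.07 for Ddit3.

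For libraries of equal replicate number, the correlations of their deviations from the group means were 0.023, 0.066, -0.144 and -0.126. These values gave no sign of pairing but, with 4 libraries a group, cannot exclude it. With the number as a replicate block, 6 of the 10 genes and 21 list genes were called, 1 of them an XBP1 target, beside 38.1% of all genes. The paired exact sign-flip test of the ratios cannot go below p 0.125 with 4 pairs, which was its adjusted p for Ern2/Ern1 (-0.60), Atf6b/Atf6 (-0.88), Xbp1/Atf4 (1.11) and Ddit3/Atf4 (-0.73). With 1 library left out, the log2 differences ran from -0.68 to -0.52 for Ern2/Ern1, -0.96 to -0.79 for Atf6b/Atf6, 0.99 to 1.23 for Xbp1/Atf4, -0.83 to -0.64 for Ddit3/Atf4 and 0.68 to 0.96 for Ppp1r15a/Eif2ak3.

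Low counts limit Ddit3 and Bloc1s1, and gene counts cannot separate spliced from unspliced Xbp1. Overlap without known strand use limits Ddit3 and, less, Eif2ak3, Atf6b and, outside its canonical transcript, Xbp1.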
